A study of Mus musculus with 12 samples.

Results

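Messenger RNA of 10 genes of the Notch pathway was followed through mouse epidermis and whole skin with and without the metalloprotease gene Adam17. The genes were a listed set, not chosen by a threshold on these values: the receptors Notch1, Notch2 and Notch3, the ligands Jag1, Jag2 and Dll1, the modifying enzyme Lfng, the DNA-binding factor Rbpj and the target genes Hes1 and Hey1. They are 10 of the 47643 gene IDs measured. Epidermis and whole skin were sequenced as 3 libraries each from Adam17 conditional knockout mice (KO, the cross Sox9-Cre x ADAM17fl/fl) and 3 libraries each from wild type mice (WT), all on C57BL/6 and all 10 weeks old, which makes 12 libraries in 4 groups. Cre driven by Sox9 acts in hair follicle progenitors and the skin cells that descend from them, so cells outside that lineage keep the gene. The sources used here do not give what alleles the WT mice carried, how the epidermis was separated, or whether libraries of 1 group came from separate mice, so p-values measure the spread between these libraries.

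Notch receptors sit on the cell surface and are activated by ligands on a neighbouring cell. Ligand binding lets a metalloprotease, chiefly Adam10, clip the receptor outside the membrane, after which gamma-secretase frees the intracellular part, which joins Rbpj on DNA and turns on genes such as those of the Hes and Hey families of transcriptional repressors. Adam17 can also cut Notch receptors, chiefly without ligand, and is best known for shedding TNF and EGF receptor ligands. In mouse epidermis, Notch signalling promotes the move of basal keratinocytes into the spinous layer, and mice that lose it in the skin develop barrier defects and inflammation.

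The promoter windows of Lfng and Rbpj are shown because these 2 members, whose levels went opposite ways in KO epidermis, were those with the core letters of the RBPJ motif, TGGGAA or its reverse complement TTCCCA, in the window searched. The table of RefSeq promoters (GRCm38.p6) had entries for 8 of the 10 members, and Hes1 and Hey1 are named only. The window ran from base -250 to base -51 before the annotated start, 200 bases, and both strands were searched. The core letters occur in 17.9% of all 32851 such windows, so a match is a description of the letters and not of a bound site. In both lines below, capitals mark the core letters.
Lfng, chr5:140607091-140607290, plus strand: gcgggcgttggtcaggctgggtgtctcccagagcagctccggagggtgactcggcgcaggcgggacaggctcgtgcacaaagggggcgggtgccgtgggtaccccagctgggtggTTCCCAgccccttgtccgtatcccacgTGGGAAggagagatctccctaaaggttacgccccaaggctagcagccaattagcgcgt
Rbpj, chr5:53590096-53590295, plus strand: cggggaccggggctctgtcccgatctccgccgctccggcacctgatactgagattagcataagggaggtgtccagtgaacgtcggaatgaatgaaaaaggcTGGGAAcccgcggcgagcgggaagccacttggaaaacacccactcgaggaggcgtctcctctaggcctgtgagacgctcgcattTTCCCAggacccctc
In Lfng the core letters began at bases -135 and -108, and the second match shared its first 2 bases with an E-box, CACGTG, the palindrome that Hes and Hey proteins can bind along with many other factors. The E-box occurs in 4.34% of all windows and was found in no other of the 8 members. In Rbpj the core letters began at bases -149 and -65, and a second annotated start of Rbpj held the same downstream match. Both RefSeq starts of Rbpj lie inside the gene as GENCODE places it, so the window shown is that of an internal start and not the region before the first exon.

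Libraries held between 12208522 and 16743144 expected counts, so 3 counts stood for 0.179 to 0.246 CPM, counts scaled to library size. CPM below are scaled with TMM over the 12 libraries and serve to follow 1 gene across libraries. Adam17, the targeted gene (chr12:21323509-21373632, minus strand), had 48.4, 58.1 and 47.4 CPM in KO epidermis against 79.0, 86.5 and 79.5 CPM in WT epidermis, and 41.7, 52.2 and 52.6 CPM in KO skin against 72.4, 96.4 and 94.2 CPM in WT skin. Its log2 fold change was -0.66 in epidermis (edgeR adjusted p = 0.00213) and -0.75 in skin (edgeR adjusted p = 0.00797), and reads of cells outside the Cre lineage and of exons that stay in the floxed allele are included in the gene's count. The tissue labels fit the markers: 11 endothelial genes summed to 4.98 to 11.6 CPM in KO epidermis and 1.38 to 2.39 CPM in WT epidermis, against 36.5 to 52.2 CPM in KO skin and 129 to 148 CPM in WT skin. Y-linked genes had 1781, 213 and 679 reads in KO epidermis and 1728, 0 and 1034 reads in KO skin, against 0 reads in the 6 WT libraries. Xist, which is expressed from the inactive X of female cells, had 0, 2511 and 2050 reads in KO epidermis and 0, 430 and 319 reads in KO skin, against 660 to 3222 reads in the WT libraries. KO epidermis libraries 2 and 3 and KO skin library 3 thus held both Y-linked and Xist reads, and whether libraries pool mice of both sexes is not stated by the labels. Because Y-linked reads were in all 3 KO epidermis libraries and in none of the WT ones, the presence of male RNA and the genotype cannot be told apart in epidermis. The WT skin library 1 stood apart in skeletal muscle, whose 9 markers summed to 79021 CPM there against 10644 and 26217 CPM in WT skin libraries 2 and 3.

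In KO epidermis the target gene Hes1 was 11.8-fold lower than in WT epidermis, the ligands Dll1 and Jag2 and the enzyme Lfng were lower, and Notch2, Notch3, Jag1 and Rbpj were higher. Of 9 members tested, 4 were higher, 4 lower and 1, Notch1, did not pass the test, and Hey1 was too low to be tested. The test was the quasi-likelihood test of edgeR, with p adjusted by Benjamini-Hochberg over all genes tested and a threshold of 0.05. It called 51.5% of all genes tested in epidermis, 26.2% higher and 25.3% lower. The share of members called lies above this background, but the members are few and were listed with earlier results known, so nothing is read from that. The KO and WT libraries lay fully apart for 62.0% of tested genes.

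**Figure D1:**
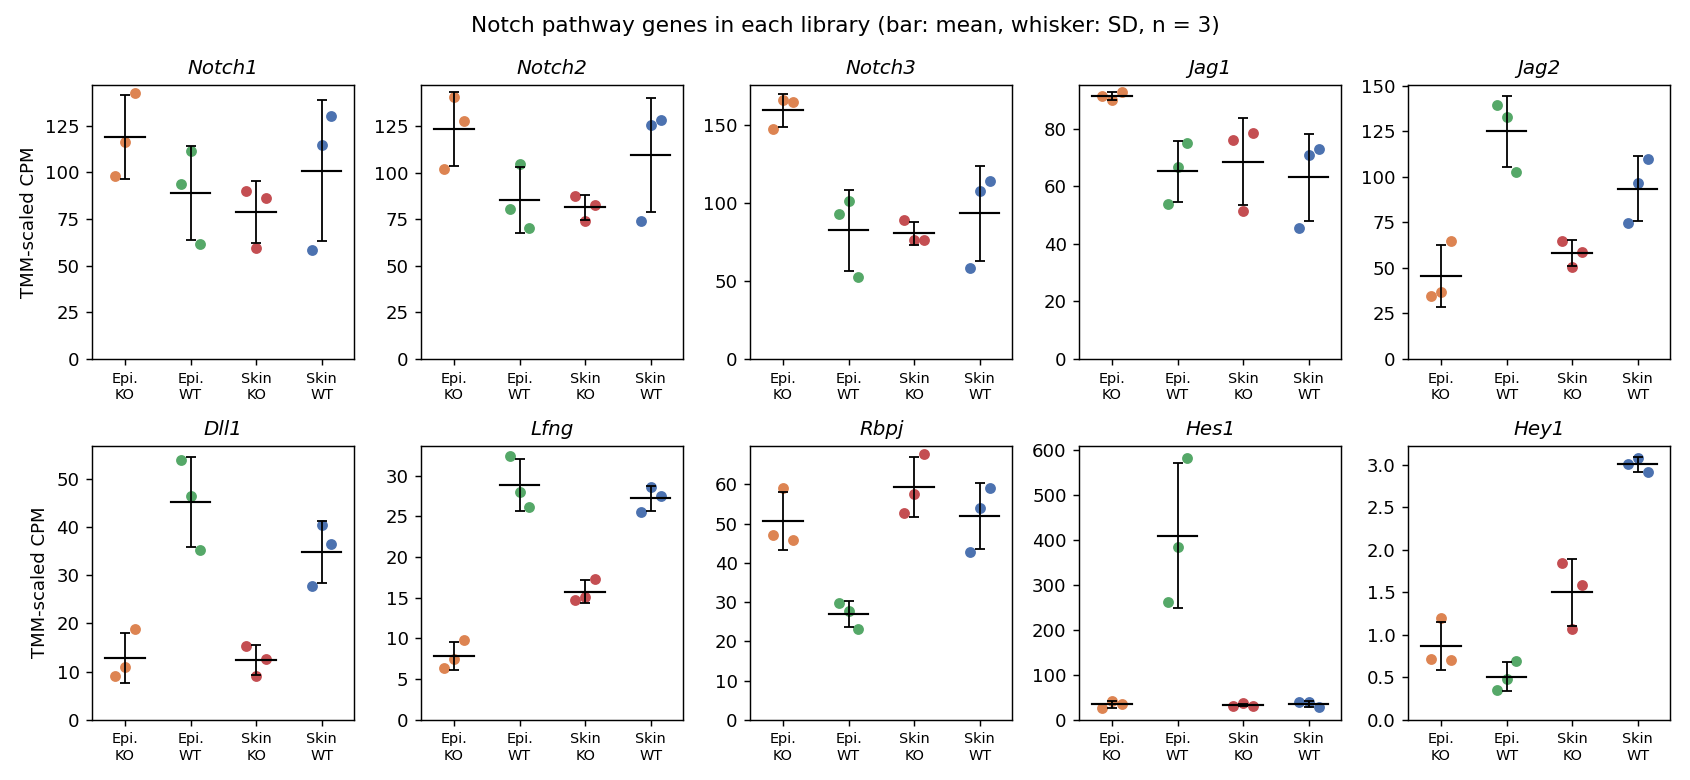
TMM-scaled CPM (vertical axes, from 0, each panel on its own scale) of the 10 genes in every library of the 4 groups (points), with the group mean (long bar) and SD (whisker), n = 3 libraries. Hes1 lies between 262 and 582 CPM in WT epidermis and at or below 40.8 CPM in the other 9 libraries.

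Of the receptors, Notch3 showed the clearest difference. Notch3 (chr17:32120820-32166852, minus strand) is a Notch receptor of keratinocytes that is also prominent in vascular smooth muscle. It had 147, 166 and 165 CPM in KO epidermis against 93.1, 102 and 52.8 CPM in WT epidermis. All KO libraries lay above all WT libraries, and WT library 3 was the lowest. The log2 fold change was 0.96 (SE 0.22, edgeR adjusted p = 0.00674). The 9 smooth muscle and pericyte markers summed to 12.2, 14.4 and 17.5 CPM in KO epidermis against 31.9, 29.5 and 17.9 CPM in WT epidermis, but the lower sum comes from Cspg4 (6.14 CPM on average in KO epidermis and 20.3 CPM in WT epidermis), the 1 called of the 4 tested. Acta2, Tagln and Mylk, the other 3 tested, had log2 fold changes of 0.09, 0.54 and 0.59 and were not called. Rgs5 and Myh11, defining pericyte and smooth muscle genes, were near 0 in both groups, at 0.177 and 0.106 CPM in KO epidermis against 0.046 and 0.0589 CPM in WT epidermis. These marker genes were named after their values were seen, and their part in the higher Notch3 was not tested. Notch2 (chr3:98013527-98150361, plus strand), a receptor that acts alongside Notch1 in skin, had 102, 141 and 128 CPM in KO epidermis against 80.6, 105 and 70.3 CPM in WT epidermis. KO library 1 lay below WT library 2, so the groups overlapped. The log2 fold change was 0.55 (SE 0.18, edgeR adjusted p = 0.0312), and this call was lost in 5 of 14 alternatives, among them leaving out WT library 1, WT library 3, KO library 2 or KO library 3 (adjusted p up to 0.105). Notch1 (chr2:26457903-26516663, minus strand), the receptor whose loss in mouse skin causes hyperplasia, had 98.3, 116 and 143 CPM in KO epidermis against 93.7, 112 and 61.9 CPM in WT epidermis. The groups overlapped and the difference did not pass (log2 fold change 0.43, 95% interval -0.07 to 0.94, edgeR adjusted p = 0.132). The transcripts 0610009E02Rik and Gm13568, annotated on the strand opposite to Notch1, held 3184 and 1003 reads over the 12 libraries against 16733 for Notch1, and the sources used here do not give the strand setting of the counting.

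The ligands split. Dll1 (chr17:15367354-15376872, minus strand), a Delta ligand of basal keratinocytes, had 9.02, 10.9 and 18.8 CPM in KO epidermis against 53.9, 46.4 and 35.3 CPM in WT epidermis. The groups were well apart, with KO library 3 the highest of its group and WT library 3 the lowest of its group. The log2 fold change was -1.79 (SE 0.27, edgeR adjusted p = 0.00093), or 3.45-fold lower. Jag2 (chr12:112907819-112929776, minus strand), a Jagged ligand of the basal layer, had 34.5, 36.6 and 64.9 CPM in KO epidermis against 139, 133 and 102 CPM in WT epidermis. KO library 3 again stood highest among the KO libraries and below all WT libraries. Jag2 was 2.73-fold lower (log2 fold change -1.45, SE 0.25, edgeR adjusted p = 0.00154). Jag1 (chr2:137081456-137116644, minus strand), a Jagged ligand of the layers above, went the other way, with 91.5, 90.1 and 92.9 CPM in KO epidermis against 54.0, 66.7 and 74.9 CPM in WT epidermis. The KO libraries were nearly equal and all lay above the WT libraries. The log2 fold change was 0.50 (SE 0.13, edgeR adjusted p = 0.0115), and the call was lost with the share of Y-linked reads as a covariate (log2 fold change 0.51, adjusted p = 0.0747) and in 1 fit of all 12 libraries (adjusted p = 0.0651).

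Keratinocyte markers went both ways beside Dll1 and Jag2. Of the 9 markers, 2 were higher (Krt1 and the desmosomal Dsp), 3 lower and 4 not called in KO epidermis. The lower ones, named like Dsp after their values were seen, were Krt5, a basal keratin (log2 fold change -1.12, edgeR adjusted p = 0.00209), Itga6, a hemidesmosome integrin (-0.95, edgeR adjusted p = 0.00863), and Col17a1, a hemidesmosome collagen (-1.86, edgeR adjusted p = 0.000553). Krt14 and Trp63, also basal genes, were not called, at log2 fold changes of -0.23 and -0.29. In KO skin, where Dll1, Jag2 and Lfng were lower too, Col17a1 was lower (-1.25, edgeR adjusted p = 0.00216), Krt14 was higher (1.49, edgeR adjusted p = 0.00232), and Krt5 (0.35) and Itga6 (-0.03) were not called. The part of these markers in the lower Dll1, Jag2 and Lfng was not tested, and in bulk tissue fewer cells of a type and less RNA per cell cannot be told apart. The 9 fibroblast markers summed to 107, 147 and 85.1 CPM in KO epidermis against 20.7, 21.0 and 14.2 CPM in WT epidermis, and 7 of the 9 were called higher, the other 2 not being tested. Markers of other cells were higher in KO epidermis too. Macrophage markers summed to 97.3, 96.9 and 38.8 CPM in KO epidermis against 19.2, 20.8 and 18.8 CPM in WT epidermis (4 of 5 tested called higher). Neutrophil markers summed to 85.5, 101 and 49.7 CPM in KO epidermis against 6.36, 8.07 and 5.71 CPM in WT epidermis (3 of 4 higher). T cell markers summed to 157, 192 and 127 CPM in KO epidermis against 79.6, 78.9 and 77.9 CPM in WT epidermis (4 of 7 higher), and melanocyte markers to 45.6, 196 and 212 CPM against 29.2, 36.0 and 22.2 CPM (4 of 5 higher). None of these lists had a gene called lower. Of the 11 endothelial markers, whose sums are given above, 2 were tested, with 1 higher and 0 lower. In other lists 1 of 3 tested adipocyte markers, 1 of 10 hair shaft and matrix markers and 0 of 6 skeletal muscle markers were higher, with 0 lower. Of 4 Schwann cell markers tested, 1 was higher and 1 lower. The part of all these lists in the higher levels of Notch3, Notch2, Jag1 and Rbpj was not tested.

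Lfng and Rbpj, whose promoter windows are printed above, went opposite ways. Lfng (chr5:140607320-140615545, plus strand) encodes Lunatic fringe, a glycosyltransferase of the Golgi that changes how Notch receptors respond to Delta and Jagged ligands. It had 6.33, 7.50 and 9.76 CPM in KO epidermis against 32.4, 27.9 and 26.2 CPM in WT epidermis. The groups were far apart, and Lfng was 3.62-fold lower (log2 fold change -1.86, SE 0.19, edgeR adjusted p = 0.000122). Rbpj (chr5:53466152-53657362, plus strand), the DNA-binding partner of the Notch intracellular domain and a repressor without it, had 47.1, 59.1 and 45.8 CPM in KO epidermis against 29.8, 27.7 and 23.3 CPM in WT epidermis. All KO libraries lay above all WT libraries, with a log2 fold change of 0.93 (SE 0.15, edgeR adjusted p = 0.00118). A pseudogene copy, Rbpj-ps3, held 43 reads over the 12 libraries against 8218 for Rbpj.

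Hes1 differed most. Hes1 (chr16:30064384-30067796, plus strand), the classic Notch target that represses other genes and acts in spinous keratinocytes, had 26.3, 40.8 and 36.1 CPM in KO epidermis against 262, 384 and 582 CPM in WT epidermis. Every WT library lay far above every KO library, while the WT libraries also differed widely among themselves, library 3 being the highest. The log2 fold change was -3.55 (SE 0.31, 95% interval -4.25 to -2.86, edgeR adjusted p = 5.72e-05). It ranged from -3.81 to -3.18 over 14 alternatives and passed in each. The share of Y-linked reads as a covariate gave -3.18 (edgeR adjusted p = 0.00183). That share was 0 in every WT library, so this fit cannot tell male RNA apart from genotype. Hey1 (chr3:8663359-8667256, minus strand), a related repressor best known from endothelium, had 9, 15 and 10 reads in KO epidermis against 4, 7 and 8 reads in WT epidermis, and at this depth it was left out of the test.

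Immediate early and heat shock genes, a list chosen after the Hes1 values were seen, were in sum highest in WT epidermis, as Hes1 was. These 12 genes, Fos, Fosb, Jun, Junb, Egr1, Atf3, Dusp1, Ier2, Ier3, Nr4a1, Hspa1a and Hspa1b, are known for a fast rise after cell stress, tissue dissociation included. They summed to 4007, 5311 and 4524 CPM in KO epidermis against 12166, 16220 and 14673 CPM in WT epidermis, and 9 of the 12 were lower and 3, Ier3, Hspa1a and Hspa1b, higher in KO. The sums were 1769, 1593 and 1930 CPM in KO skin and 1169, 1371 and 1202 CPM in WT skin. Elsewhere the list and Hes1 parted: 6 of the 12 genes were higher and 0 lower in KO skin against WT skin, and 9 were higher and 1 lower in KO epidermis against KO skin, while Hes1 passed in neither comparison. Within WT epidermis the sum was highest in library 2 and Hes1 in library 3. The part of these genes in the Hes1 difference was not tested.

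**Figure D2:**
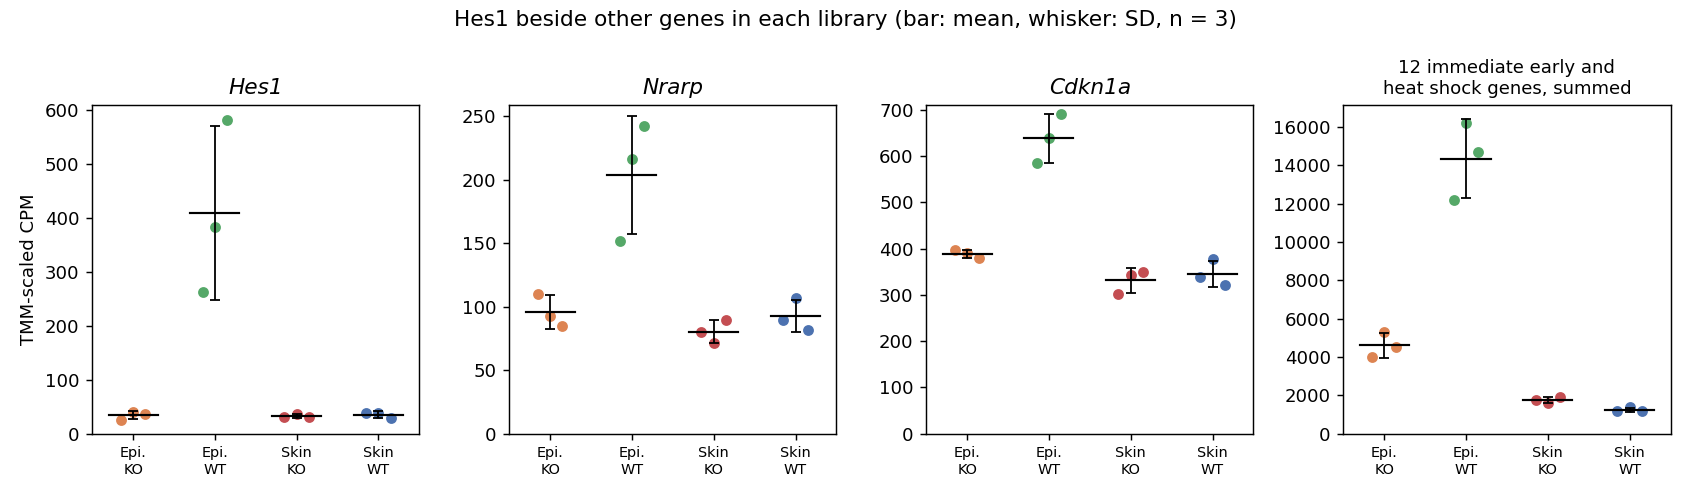
TMM-scaled CPM (vertical axes, from 0) of Hes1, of Nrarp and Cdkn1a, and of 12 immediate early and heat shock genes summed, in every library of the 4 groups (points), with the mean (long bar) and SD (whisker), n = 3 libraries. WT epidermis is highest in all 4 panels, and KO epidermis is close to skin for Hes1 but not for the summed genes.

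In whole skin no member was called higher in KO. Of 10 members tested, 0 were higher and 4 lower in KO skin (Jag2, Dll1, Lfng and Hey1), beside 45.5% of all genes tested called in skin, 22.2% higher and 23.3% lower. The 4 lower members were also those whose KO and WT libraries did not overlap, which held for 58.0% of the genes tested. Dll1 had 15.4, 9.15 and 12.6 CPM in KO skin against 27.9, 40.4 and 36.4 CPM in WT skin, and all KO libraries lay below all WT libraries. It was 2.65-fold lower (log2 fold change -1.40, SE 0.23, edgeR adjusted p = 0.00307) and passed in all 15 alternatives. Lfng had 14.7, 15.1 and 17.3 CPM in KO skin against 25.6, 28.6 and 27.5 CPM in WT skin. The spread within each group was small beside the gap, and Lfng was 1.63-fold lower (log2 fold change -0.70, SE 0.13, edgeR adjusted p = 0.0051).

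Jag2 and Hey1 rested on fewer libraries. Jag2 had 64.9, 50.6 and 58.6 CPM in KO skin against 74.5, 96.4 and 110 CPM in WT skin, with WT library 1 nearest to the KO libraries. Its log2 fold change was -0.59 (SE 0.17, edgeR adjusted p = 0.024). Hey1 had 1.85, 1.07 and 1.59 CPM in KO skin against 3.01, 3.09 and 2.92 CPM in WT skin, on 26, 15 and 25 reads against 43, 59 and 48 reads. The WT libraries were nearly equal and all above the KO libraries, with a log2 fold change of -0.91 (SE 0.27, edgeR adjusted p = 0.0283). Both calls were lost on leaving out WT skin library 2, WT skin library 3, KO skin library 2 or KO skin library 3, with adjusted p up to 0.0826 for Jag2 and up to 0.0819 for Hey1. Leaving out the 2 KO skin libraries with Y-linked reads, which leaves 1 KO library assumed to vary like the WT ones, gave log2 fold changes of -0.77 for Jag2 (adjusted p = 0.137), -1.37 for Hey1 (adjusted p = 0.083) and -0.74 for Lfng (adjusted p = 0.0865), none of which passed. The 11 endothelial markers were all lower in KO skin, where they summed to 52.2, 36.5 and 40.7 CPM against 148, 129 and 147 CPM in WT skin. Lower there too were 9 of 9 skeletal muscle, 8 of 8 adipocyte and 5 of 5 Schwann cell markers. So were 7 of 9 smooth muscle and pericyte and 5 of 9 fibroblast markers. Melanocyte markers (5 of 5) were called higher, and of 5 neutrophil markers 4 were called higher and 1 lower. Of 6 macrophage markers 2 were lower and 0 higher. Higher, with 0 lower, were 2 of 6 tested T cell markers and 3 of 11 hair shaft and matrix markers. The part of these lists in the lower Hey1 was not tested.

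The receptors did not pass in skin, and WT skin library 1 set much of their spread. Notch1 had 89.9, 59.8 and 86.4 CPM in KO skin against 58.3, 114 and 130 CPM in WT skin. Notch2 had 87.6, 74.4 and 82.8 CPM in KO skin against 74.1, 126 and 129 CPM in WT skin. Notch3 had 89.0, 76.3 and 76.0 CPM in KO skin against 58.5, 108 and 114 CPM in WT skin. In each, WT library 1 was at or below the lowest KO library while WT libraries 2 and 3 lay above all KO libraries. WT library 1 also held the most muscle RNA, whose part was not tested. It was low in other genes too, named after their values were seen: Spen (22.2 against 50.5 and 64.1 CPM in WT skin libraries 2 and 3) and Dsp (1913 against 3420 and 3329 CPM). Psenen was higher there (87.2 against 68.3 and 56.4 CPM). The log2 fold changes were -0.26 for Notch1 (95% interval -0.97 to 0.44), -0.33 for Notch2 (-0.83 to 0.17) and -0.12 for Notch3 (-0.69 to 0.45), with edgeR adjusted p from 0.241 to 0.708. Without WT skin library 1, Notch2 (log2 fold change -0.56, adjusted p = 0.00612) and Notch3 (-0.38, adjusted p = 0.0254) passed as lower in KO skin.

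Jag1, Rbpj and Hes1 did not pass in skin either. Jag1 had 76.2, 51.3 and 78.4 CPM in KO skin against 45.7, 71.0 and 72.8 CPM in WT skin, with overlapping groups (log2 fold change 0.21, 95% interval -0.33 to 0.75, edgeR adjusted p = 0.479). Rbpj had 52.8, 57.5 and 67.7 CPM in KO skin against 42.7, 53.9 and 59.1 CPM in WT skin, again overlapping (log2 fold change 0.29, 95% interval -0.08 to 0.66, edgeR adjusted p = 0.179). Hes1 had 31.7, 36.5 and 30.3 CPM in KO skin against 38.5, 39.3 and 28.5 CPM in WT skin. Its log2 fold change was -0.02, and the 95% interval of -0.42 to 0.38 leaves out a difference of the size seen in epidermis (edgeR adjusted p = 0.927).

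**Figure D3:**
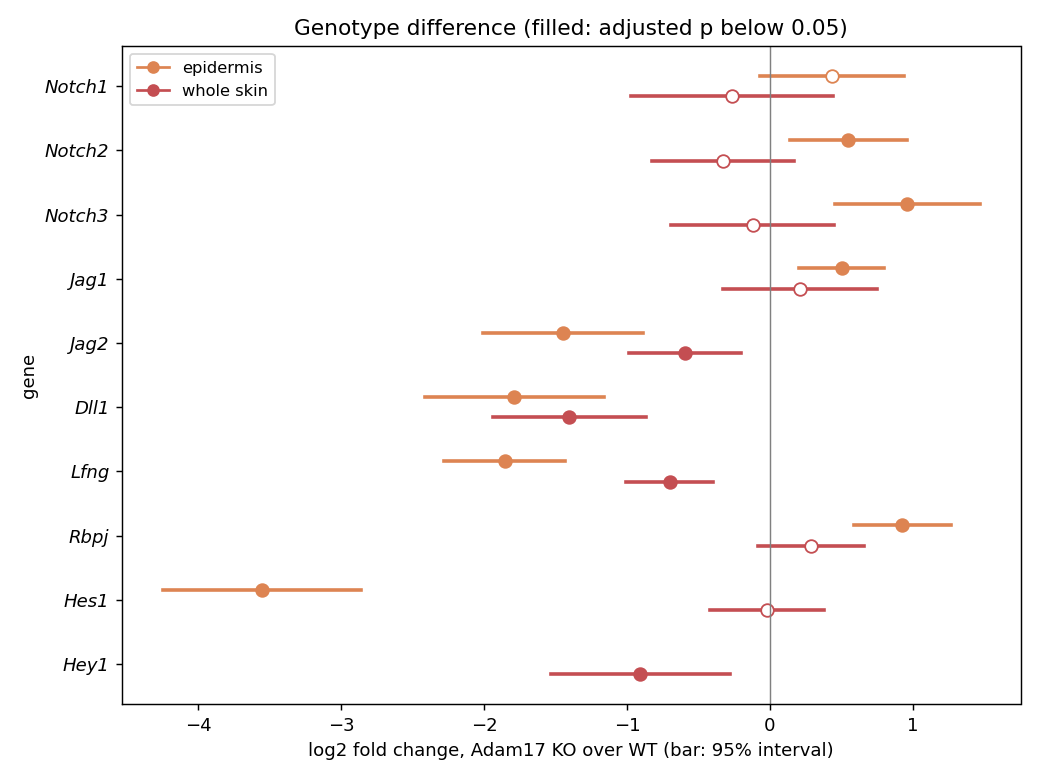
Log2 fold change of KO over WT (horizontal axis) with its 95% interval (bar) for each gene, in epidermis (upper bar of a pair) and whole skin (lower bar), n = 3 KO and 3 WT libraries each. Filled points passed an adjusted p of 0.05, and Hey1 has no epidermis value because it was too low to be tested. Hes1 stands at -3.55 in epidermis and -0.02 in skin.

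Whether the KO effect differs between epidermis and skin was tested over the 12 libraries together. It was called for 5 of 10 members, 3 of them upward and 2 downward, beside 16.5% of all genes tested, 10.1% upward and 6.36% downward, and only Hes1 and Lfng kept the call in all 20 alternatives. The Hes1 effect in epidermis minus that in skin was -3.46 on the log2 scale (SE 0.37, edgeR adjusted p = 0.000528), and the Lfng effect -1.08 (SE 0.23, edgeR adjusted p = 0.0103). Notch3 differed by 1.17 (SE 0.37, edgeR adjusted p = 0.05, just under the threshold before rounding), Rbpj by 0.72 (SE 0.22, edgeR adjusted p = 0.0487) and Hey1 by 1.76 (SE 0.48, edgeR adjusted p = 0.031). With the replicate number as a block these 3 missed the threshold, with adjusted p of 0.0682 for Notch3, 0.0653 for Rbpj and 0.0566 for Hey1. On leaving out 1 library, Notch3 kept the call only without WT skin library 1 or WT epidermis library 2, and Rbpj only without WT skin library 1 or KO skin library 3 (highest adjusted p 0.124 and 0.127). Hey1 lost it without library 2 or 3 of WT skin or of KO skin, library 1 or 2 of WT epidermis, or library 2 of KO epidermis (highest adjusted p 0.111 over all alternatives). Notch2 just missed it (0.96, SE 0.30, edgeR adjusted p = 0.051), and passed without WT skin library 1 (adjusted p = 0.00766). For Dll1 the difference was -0.31 with a 95% interval of -1.17 to 0.56 (edgeR adjusted p = 0.618), and for Jag2 -0.77 with an interval of -1.50 to -0.05 (edgeR adjusted p = 0.129, and 0.0124 without KO epidermis library 3), so with all libraries a difference between tissues was not shown for either ligand, nor was it shown that the effects are alike.

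WT epidermis against WT skin compares the 2 tissues in mice labelled wild type. Of 10 members, 3 were called, beside 42.9% of all genes tested, and for the same 3 the groups did not overlap, as they did not for 56.5% of the genes tested. Hes1 was 11.4-fold higher in WT epidermis, at the values given above for both groups, with no overlap (log2 fold change 3.51, SE 0.32, edgeR adjusted p = 0.000178). The immediate early and heat shock list was also higher in WT epidermis, with 9 of 12 genes called higher and 0 lower, and its part was not tested. Rbpj was lower in WT epidermis, with a log2 fold change of -0.97 (SE 0.16, edgeR adjusted p = 0.00275). Hey1 had 0.35, 0.48 and 0.69 CPM in WT epidermis against 3.01, 3.09 and 2.92 CPM in WT skin, a log2 fold change of -2.57 (SE 0.32, edgeR adjusted p = 0.000742). All 11 endothelial markers were lower in WT epidermis, 3 of them at 0 reads. All 9 fibroblast, 9 skeletal muscle and 8 adipocyte markers were lower too, while 5 of 9 keratinocyte markers were higher, and the part of these lists was not tested. Hes1, Rbpj and Hey1 kept their calls in the 13 alternatives run. The log2 fold changes of Notch1, Notch2, Notch3, Jag1, Jag2, Dll1 and Lfng lay between -0.38 and 0.39, and none passed (edgeR adjusted p from 0.113 to 0.929).

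KO epidermis against KO skin gave a different set. Of 10 members, 3 were called, beside 29.9% of all genes tested, and 5 had groups that did not overlap, beside 47.9% of the genes tested. Notch2 (log2 fold change 0.59, edgeR adjusted p = 0.0157) and Notch3 (0.98, SE 0.10, edgeR adjusted p = 0.00181) were higher and Lfng was lower (95% interval of the log2 fold change -1.43 to -0.57, edgeR adjusted p = 0.00825) in KO epidermis. Notch3 and Lfng passed in all 14 alternatives, while Notch2 was lost in 4, among them leaving out KO skin library 2 or KO skin library 3 (adjusted p up to 0.0611). Notch1 had the same log2 fold change as Notch2, 0.59 (95% interval 0.14 to 1.04), with no overlap. It just missed the threshold (edgeR adjusted p = 0.0534) and passed in 3 of 14 alternatives. Jag1 (0.41, edgeR adjusted p = 0.0916) did not pass either, also with no overlap. Hes1, which was far higher in WT epidermis than in WT skin, averaged 34.4 ± 7.40 CPM in KO epidermis and 32.8 ± 3.24 CPM in KO skin (SD, n = 3 each; log2 fold change 0.06, 95% interval -0.33 to 0.46, edgeR adjusted p = 0.802). Rbpj averaged 50.7 ± 7.34 CPM in KO epidermis and 59.3 ± 7.61 CPM in KO skin (SD, n = 3 each), and WT epidermis, at 26.9 ± 3.34 CPM, was the one group whose libraries did not overlap with its neighbour in the order of means.

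Levels may be compared between genes per transcript length, in the deposited TPM. TPM was not scaled with TMM, so a difference in TPM between libraries also holds differences in scaling. Jag1, nearly equal in CPM over the KO epidermis libraries, had 14.9, 19.8 and 20.3 TPM there. The 3 receptors were of like level in WT epidermis, KO skin and WT skin, while in KO epidermis Notch3 stood further above Notch1 and Notch2. In KO epidermis Notch3 averaged 19.6 ± 4.27 TPM, Notch1 12.8 ± 4.58 TPM and Notch2 11.7 ± 3.35 TPM, against 10.1 ± 3.92, 9.93 ± 3.91 and 7.88 ± 2.36 TPM in WT epidermis in the same order of genes (SD, n = 3 each). Notch3 made up 47.8, 44.7 and 42.5% of the TPM of the 3 receptors in KO epidermis against 38.2, 35.8 and 33.3% in WT epidermis, with no overlap, and 38.4, 41.6 and 35.8% in KO skin against 35.6, 35.9 and 35.4% in WT skin, where the groups overlapped. Since shares within a library add up to the whole, a higher share of 1 gene is a lower share of the others.

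Jag1 held a larger share of the ligands in both KO tissues, given here as a description with no test. Jag1 made up 59.3, 59.2 and 43.8% of the TPM of the 3 ligands in KO epidermis against 16.2, 20.9 and 25.3% in WT epidermis. In skin the Jag1 share was 38.9, 40.0 and 42.5% in KO against 22.4, 26.0 and 24.8% in WT, again with no overlap, although the Jag1 level itself did not pass the test there. The Dll1 share was 12.7, 12.5 and 16.6% in KO epidermis against 29.9, 26.3 and 29.9% in WT epidermis, and 15.8, 12.4 and 14.3% in KO skin against 26.5, 26.2 and 24.4% in WT skin. The ligands' summed level, not scaled with TMM, was 25.1, 33.4 and 46.4 TPM in KO epidermis against 63.8, 66.7 and 49.9 TPM in WT epidermis. Hes1, by contrast, averaged 27.8 ± 10.1 TPM in KO epidermis and 306.5 ± 96.6 TPM in WT epidermis (SD, n = 3 each), a mean above that of every receptor and ligand in both, while Hey1 averaged 0.377 ± 0.142 TPM in KO epidermis and 0.22 ± 0.04 TPM in WT epidermis.

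**Figure D4:**
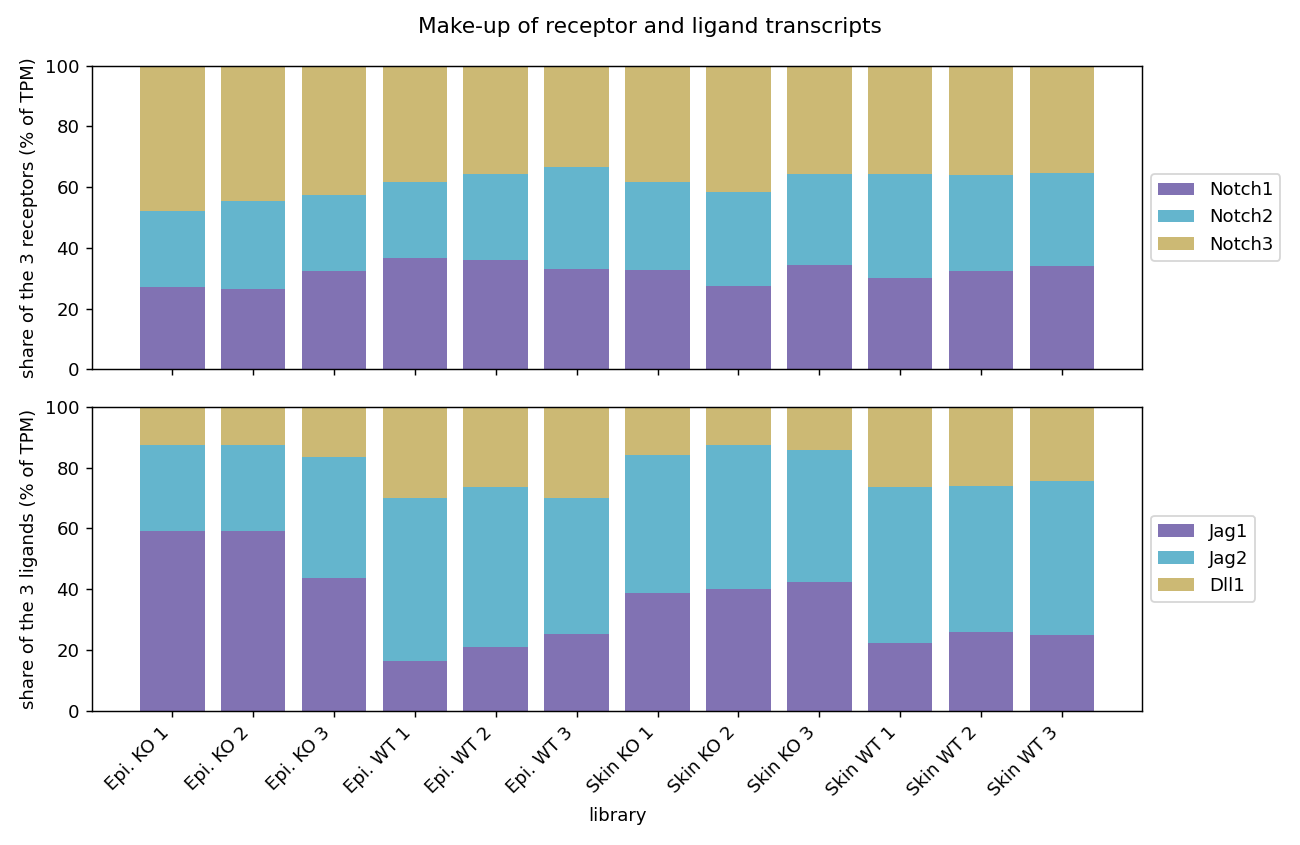
Share of each gene (stacked bars, percent of TPM) among the 3 receptors (upper panel) and among the 3 ligands (lower panel) in each of the 12 libraries, KO before WT in each tissue. The Jag1 share is 43.8 to 59.3% in KO epidermis and 16.2 to 25.3% in WT epidermis.

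The other genes of the pathway were taken from 6 lists with 43 genes, Adam17 included. In KO epidermis 34 were tested, of which 11 were higher, 7 lower and 16 not called, with a median log2 fold change of 0.19 against 0.00 over all genes. In KO skin 38 were tested, of which 5 were higher, 13 lower and 20 not called, with a median of 0.03 against 0.00 over all genes. Both shares of called genes are near the 51.5% and 45.5% of all genes.

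Among the genes that process the receptor, Adam10, the main protease of ligand-bound Notch, had 90.9, 105 and 95.6 CPM in KO epidermis against 39.5, 40.8 and 46.2 CPM in WT epidermis. It was 2.33-fold higher with no overlap (log2 fold change 1.22, SE 0.12, edgeR adjusted p = 9.04e-05), and it was also higher in KO skin (0.68, edgeR adjusted p = 0.0217). Furin, which cuts the receptor on its way to the surface, was higher in KO epidermis (0.95, edgeR adjusted p = 0.00067) and KO skin (1.02, edgeR adjusted p = 0.00188). Aph1c, a rodent gamma-secretase subunit, was lower in KO epidermis (-2.38, edgeR adjusted p = 0.00111) and KO skin (-2.06, edgeR adjusted p = 0.000424), but it has a near-identical copy, Aph1b, with which reads may be shared, so its count is uncertain.

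Of the other fringe enzymes, Rfng was slightly higher in KO epidermis (0.35, edgeR adjusted p = 0.0355) and higher in KO skin (0.81, edgeR adjusted p = 0.00439). Mfng went opposite ways: 41, 30 and 44 reads in KO epidermis against 0, 5 and 5 reads in WT epidermis (log2 fold change 3.42, edgeR adjusted p = 0.00145), and 102, 91 and 105 reads in KO skin against 157, 409 and 345 reads in WT skin (-1.29, edgeR adjusted p = 0.00716). Pofut1, which adds the fucose that fringe enzymes extend, was lower in KO skin (-0.55, edgeR adjusted p = 0.0148). Among the other receptors and ligands, Dlk2, a Delta-like protein without the usual receptor-binding domain, had 8.86, 5.90 and 10.96 CPM in KO epidermis against 49.9, 51.0 and 54.0 CPM in WT epidermis, 5.94-fold lower (log2 fold change -2.57, SE 0.20, edgeR adjusted p = 3.61e-05). It was also lower in KO skin (-0.82, edgeR adjusted p = 0.0139).

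The endothelial pair Dll4, a Delta ligand of vessels, and Notch4, a vessel receptor, were lower in KO skin, with log2 fold changes of -2.29 (edgeR adjusted p = 0.00135) and -1.52 (edgeR adjusted p = 0.0043), beside the 11 of 11 endothelial markers that were lower there. The deposited TPM of Notch4 did not show this, at 0.857 ± 0.537 TPM in KO skin and 0.837 ± 0.210 TPM in WT skin (SD, n = 3 each). Of the genes that handle ligands and receptors inside the cell, Mib2, a ubiquitin ligase for Notch ligands, was lower in KO epidermis (-0.71, edgeR adjusted p = 0.00213) and KO skin (-0.87, edgeR adjusted p = 0.00184). Fbxw7, which marks the Notch intracellular domain for breakdown, was lower as well (-0.74, edgeR adjusted p = 0.00226 in epidermis, and -0.77, edgeR adjusted p = 0.00238 in skin). Itch, a ubiquitin ligase for Notch receptors, was higher in KO epidermis (0.82, edgeR adjusted p = 0.00324). Neurl1a, like Mib2 a ubiquitin ligase for Notch ligands, was lower in KO skin (-3.30, edgeR adjusted p = 0.00508). The 9 skeletal muscle markers were all lower there too, and their part was not tested.

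Of the partners of Rbpj, the coactivators Maml1 (0.67, edgeR adjusted p = 0.0148) and Maml3 (0.58, edgeR adjusted p = 0.00481) and the corepressor Spen (0.98, edgeR adjusted p = 0.00777) were higher in KO epidermis, as Rbpj was, and Maml2 was lower in KO skin (-0.89, edgeR adjusted p = 0.0193). Of the other targets, Nrarp, which limits Notch signalling as feedback, had 110, 92.8 and 84.8 CPM in KO epidermis against 152, 217 and 242 CPM in WT epidermis. It was 2.10-fold lower (log2 fold change -1.07, SE 0.18, edgeR adjusted p = 0.00156), and in KO skin its log2 fold change was -0.11 and did not pass (edgeR adjusted p = 0.554). Dtx1, a cytoplasmic Notch regulator and target, went the other way from Hes1 and Nrarp, with 32, 45 and 38 reads in KO epidermis against 13, 10 and 5 reads in WT epidermis (log2 fold change 1.96, edgeR adjusted p = 0.00336).

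Of 7 epidermal genes tied to Notch in mouse, 6 were tested in each tissue, and 1 was higher and 1 lower in KO epidermis while 2 were higher in KO skin. Krt1, a keratin of the spinous layer, was 6.52-fold higher in KO epidermis (log2 fold change 2.70, SE 0.26, edgeR adjusted p = 9.63e-05) and 7.31-fold higher in KO skin (2.87, SE 0.23, edgeR adjusted p = 0.000258). Cdkn1a, a cell cycle inhibitor, had 397, 390 and 379 CPM in KO epidermis against 585, 639 and 691 CPM in WT epidermis, with no overlap (log2 fold change -0.70, SE 0.12, edgeR adjusted p = 0.0016). Ivl, involucrin of the cornified envelope, was higher in KO skin (0.89, edgeR adjusted p = 0.0183).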

How the data were processed

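The sample titles gave each library's group and number. The kit, per the labels' protocols, was a stranded one for mRNA. Each deposited table gives 1 expected count per gene from RSEM, and the submitters' processing notes name STAR 2.5.1, bcl2fastq 2.17 and the build mm10. RSEM divides reads that match several genes among them, so expected counts need not be whole. The authors' tables also hold TPM, used here for levels between genes, and FPKM, which per the file headers is a further column and was not used in a result. For the annotation release and strand setting: not given in the sources used here.

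Gene IDs were matched to GENCODE mouse release M21 on GRCm38 for symbols and positions. Expected counts were rounded and tested in edgeR 4.0.16 (R 4.3.3) with TMM scaling, its default expression filter and the quasi-likelihood test. Benjamini-Hochberg adjustment ran over all genes kept by the filter, threshold 0.05. Each comparison used its own 6 libraries and its own scaling, and the difference between tissues all 12, so a fitted fold change is not exactly the ratio of mean CPM. The standard error is the log2 fold change divided by the square root of F. Alternatives were DESeq2 1.42.0, limma-voom (limma 3.58.1), other scalings, no filter, the share of Y-linked reads, a replicate block, and leaving out libraries. Same-numbered KO and WT skin libraries deviated together from their group means (correlations 0.339, 0.359 and 0.206), and those of epidermis did not (0.0745, 0.14 and -0.055). Differently numbered KO and WT skin libraries gave correlations from -0.446 to 0.114. No label states a pairing. These correlations cannot decide whether there is one, since deviations from the mean of 3 libraries depend on one another. All results printed as main are from fits without the block, which is an alternative.

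The fitting script was tested on simulated data. The members, lists and tests were chosen with earlier results of these data known. Named other genes are up to 3 per list and genotype comparison with the smallest adjusted p, or the 2 with the highest TPM where none passed, and exceptions are marked in the text.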

Additional observations from a re-analysis of the deposited data

Results flagged for a closer look

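Among the members and the other genes named above, 5 members and 6 other genes passed the test of a difference in genotype effect between the tissues. This was 1 edgeR fit of 12 libraries, which called 16.5% of all genes tested. Of the 38 other pathway genes tested, 4 were called higher and 2 lower, not all of which are named here. Values are the log2 effect in epidermis minus that in skin. For the members they were -3.46 for Hes1 (adjusted p = 0.000528), -1.08 for Lfng (adjusted p = 0.0103), 1.17 for Notch3 (adjusted p = 0.05), 0.72 for Rbpj (adjusted p = 0.0487) and 1.76 for Hey1 (adjusted p = 0.031). Only Hes1 and Lfng passed in all 20 alternatives. Notch3 passed in 6, Rbpj in 5 and Hey1 in 10, and all 3 missed the threshold with the replicate block (adjusted p of 0.0682, 0.0653 and 0.0566). Hey1 rested on 9, 15 and 10 reads in KO epidermis and 4, 7 and 8 reads in WT epidermis.

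Of the other genes, Nrarp (-0.88, adjusted p = 0.0352), Cdkn1a (-0.66, adjusted p = 0.0188) and Dlk2 (-1.68, adjusted p = 0.00538) were lower in KO epidermis relative to the effect in skin. Mfng (4.80, adjusted p = 0.00118), Notch4 (2.66, adjusted p = 0.00543) and Neurl1a (5.40, adjusted p = 0.00519) went the opposite way, with few reads in WT epidermis: 10 in all for Mfng and 8 in all for Notch4. Endothelial markers gave the same direction, with 8 of 11 called higher and 0 lower in this test. So did the markers of fibroblasts (9 of 9), skeletal muscle (8 of 9), adipocytes (5 of 8) and macrophages (4 of 6), each with 0 lower. Keratinocyte markers had 0 of 9 higher and 2 lower. The part of these lists was not tested.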

How the results depend on the processing

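Of the members' calls, Hes1, Dll1, Jag2, Lfng, Notch3 and Rbpj in epidermis, Dll1 in skin, Hes1, Hey1 and Rbpj between WT tissues, Notch3 and Lfng between KO tissues, and Hes1 and Lfng for the difference between tissues passed in every alternative run. Leaving out 1 library at a time gave 7 to 8 members and 5856 to 6573 genes called in epidermis, 2 to 6 and 4944 to 7770 in skin, 3 to 4 and 4198 to 7830 between WT tissues, 2 to 4 and 2328 to 3561 between KO tissues, and 2 to 7 and 1393 to 3940 for the difference. Without the KO skin libraries that held Y-linked reads, 1 member and 2658 genes were called in skin, from 1 KO library. With the share of Y-linked reads as covariate, 4540 genes were called in epidermis against 7014 without it, and 3 members for the difference. This covariate could not be fitted between WT tissues, where no library has such reads. For the difference, 3 members were called by limma-voom, 3 with no filter, 2 with the replicate block, and 2 members and 1271 genes with a block by genotype and number. The replicate block gave 2805 genes between KO tissues against 4227 without it, Notch2 losing its call there (adjusted p = 0.0542). In skin the replicate block changed no call of a member. In epidermis and between tissues, same-numbered libraries did not deviate together, but this cannot decide whether they share mice, which no label states. Y-linked reads were most in library 1 and fewest in library 2 of both KO tissues. The cause of these shifts was not tested, beyond the fewer libraries in some.

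Sign changes occurred only in log2 fold changes that passed in neither setting. In skin they were -0.0994 for Jag1 and 0.0898 for Hes1 with the Y covariate, and -0.182 for Jag1 and 0.154 for Hes1 without the KO libraries with Y-linked reads. Leaving out 1 library at a time gave ranges across 0 in skin for Hes1 (-0.168 to 0.0592) and Notch3 (-0.381 without WT library 1, where it passed, to 0.0323 without WT library 3). It did so between WT tissues for Notch1 (-0.45 to 0.0142), Notch3 (-0.421 to 0.0371), Jag1 (-0.135 to 0.153) and Lfng (-0.025 to 0.121), and between KO tissues for Dll1 (-0.309 to 0.27) and Hes1 (-0.0703 to 0.231). Depth limits Hey1, whose libraries held between 4 and 59 reads.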
